A study of Rattus norvegicus with 9 samples.

Results

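The genes described here encode enzymes, carriers and membrane proteins of the lysosome, together with Tfeb, a transcription factor that acts on many of them. They were chosen by name from a list of 33 genes, keeping those whose mean over the 9 libraries was at least 10. One listed gene, Sgsh, was not matched by name, and the other 32 all passed, out of 18420 genes in the table and 13647 genes that reached that mean. They comprised 8 proteases, 8 glycosidases, 2 sulfatases, 7 lipid-handling enzymes and carriers, 6 membrane proteins and Tfeb.

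The libraries came from flash-frozen kidney cortex of ZDF fa/fa rats, a strain without a working leptin receptor that becomes obese and diabetic. All 9 were labelled diabetic and belonged to the Medical Bypass group, an intervention that the series title sets against gastric bypass in diabetic kidney disease. No lean, untreated or operated animals were analysed here, so nothing below compares the treatment with a control. Each library carries a number of its own, but the labels do not state what it stands for or that each replicate is a different animal. P-values therefore measure only how these libraries spread, whatever part of it is technical.

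The lysosome is an acidic compartment in which hydrolases break down proteins, glycans and lipids brought in by endocytosis and autophagy. Proximal tubule cells of the kidney cortex depend heavily on it, because they take up and digest the proteins that pass the glomerular filter. TFEB moves into the nucleus when nutrient signalling through mTORC1 falls, and there it binds an E-box type sequence, the CLEAR element, near the start of many lysosomal genes.

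Values are read counts divided by a size factor for each library, and are called levels below. They are not corrected for gene length, so levels are compared between replicates of a gene and not between genes. Reads assigned to genes ranged from 10757440 to 43071223 per library, and 1 read was worth between 0.544 and 1.99 units of level. The lowest read number behind any value of these 32 genes was 127, for Ctsz. Replicates 1 to 3 stood apart in clock genes: Nr1d1, a repressor of the circadian clock, lay between 1309 and 1346 in them and between 110 and 243 in the other 6. Replicate 1 stood apart in cell type markers, with the lowest summed level of 13 markers of the first parts of the proximal tubule (189694, against up to 384817 in replicate 8) and the highest thick ascending limb, intercalated cell and principal cell sums. The share of counted reads that aligned to more than 1 place lay between 14.9% and 19.2% in 8 libraries and was 22.1% in replicate 5. Summed macrophage markers ran from 6927 in replicate 3 to 10548 in replicate 5, none of the 14 matched markers was at 0 in all libraries, and 5 lymphocyte markers summed to at most 41.5. Most of the macrophage sum came from Lyz2, with a mean of 5906 and its highest value, 6661, in replicate 1. In bulk tissue, fewer cells of a type and less RNA per cell cannot be told apart.

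The stretches shown first come from promoter windows that carry the E-box core CACGTG, found in 8 of the 26 listed genes that have a promoter window in RefSeq's GRCr8 annotation. A window ran from 250 bases before to 50 bases after the annotated start, and CACGTG reads the same on both strands. Stretches are written 5′ to 3′ on the gene's own strand, and capitals mark the core. Lamp1, which encodes a heavily glycosylated protein of the lysosomal membrane, held 5 matches at chr16:83075064-83075256 on the minus strand. Ctsd, for the aspartic protease cathepsin D, held 2 at chr1:206968822-206968988 on the minus strand. Glb1, for beta-galactosidase, held 1 at chr8:122963608-122963717 on the plus strand. Only 26 bases are shown for Gaa, for acid alpha-glucosidase, at chr10:105028278-105028303, and for Mcoln1, for the calcium channel mucolipin 1, at chr12:6358226-6358251 and chr12:6358252-6358277, all on the plus strand. RefSeq annotates Gaa from 249 and Mcoln1 from 407 bases further upstream, so their stretches may lie within a longer transcript. The second Mcoln1 match lay past the annotated start.
Lamp1: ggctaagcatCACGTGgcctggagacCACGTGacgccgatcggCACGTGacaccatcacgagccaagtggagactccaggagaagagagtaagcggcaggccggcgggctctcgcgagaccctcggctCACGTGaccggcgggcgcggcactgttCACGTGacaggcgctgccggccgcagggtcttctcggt
Ctsd: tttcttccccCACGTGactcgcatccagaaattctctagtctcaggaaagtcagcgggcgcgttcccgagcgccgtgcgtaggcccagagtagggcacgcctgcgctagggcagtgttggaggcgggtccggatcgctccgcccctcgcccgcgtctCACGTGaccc
Glb1: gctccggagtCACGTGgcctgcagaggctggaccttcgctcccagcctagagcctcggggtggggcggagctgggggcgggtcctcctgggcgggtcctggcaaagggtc
Gaa: gcccacaaacCACGTGacccacgctg
Mcoln1, first match: tcaagcttgtCACGTGttcgacccag
Mcoln1, second match: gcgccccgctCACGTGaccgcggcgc

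The other 3 carriers of the core were Cd63, Idua and Sgsh, and 18 of the 26 windows, those of Smpd1 and Tfeb among them, had no CACGTG. As a share of windows, 30.8% of the listed genes held the core, beside 6.42% of all 33469 RefSeq windows and 8.89% of the 10226 windows of genes with a mean of at least 10. A longer form, TCACGTG on either strand, which contains the core, was found in 7 of the 26 (26.9%, beside 3.20% of all windows and 5.18% of those of genes with a mean of at least 10). The 8-letter form TCACGTGA, which contains both shorter ones, was found in Ctsd, Lamp1 and Mcoln1 (11.5%, beside 0.777% and 1.54%). In Lamp1 the matches began 183, 167, 150, 65 and 38 bases before the start, and RefSeq also annotates a Lamp1 transcript that begins 7780 bases further upstream. A match describes the letters in the window and was not tested as a binding site, and these coordinates belong to GRCr8, while the submitters' processing notes name Rnor_5.0. The list was drawn up from known lysosomal genes, some of which are textbook TFEB targets, so the shares describe the list as chosen.

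**Figure D1:**
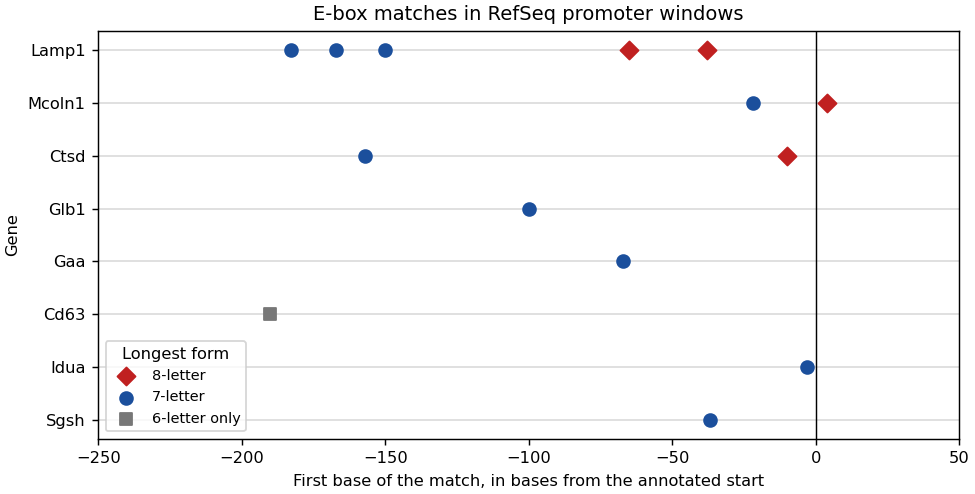
E-box matches in RefSeq promoter windows of the 8 listed genes that have one; the horizontal axis gives the first base of each match in bases from the annotated start, and the marker gives the longest form matched (red diamond TCACGTGA, blue circle TCACGTG, grey square CACGTG alone). Lamp1 has 5 matches, Mcoln1 and Ctsd have 2 each, and the other 5 genes have 1 each.

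Tfeb itself averaged 878.2 ± 249.4 (SD, n = 9). Its level was 987 in replicate 1, 732 in replicate 2, 637 in replicate 3, 710 in replicate 4, 1296 in replicate 5, 777 in replicate 6, 993 in replicate 7, 1186 in replicate 8 and 586 in replicate 9. Replicates 5 and 8 were the highest, replicates 9 and 3 the lowest, and the ends of this range differed 2.21-fold.

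Many of the lysosomal genes, but not all, tended to vary together across the replicates. The highest replicate exceeded the lowest by a median of 1.78-fold over the 32 genes (1.21 to 2.43), against 2.01-fold over all genes tested. The median coefficient of variation was 19.0%, against 23.0%. Pairs of these genes had a median Pearson r of 0.379 over the 9 replicates (496 pairs), against -0.0034 over all pairs of genes tested. Within roles the median was 0.715 for glycosidase pairs, 0.403 for membrane protein pairs, 0.262 for protease pairs and 0.0013 for pairs of lipid-handling genes. All values of a library share its size factor. The median for the 32 genes was 0.161 with equal library totals and 0.466 without replicate 1. The median over all pairs of genes in those settings is not given here. A gene's median r with the other lysosomal genes was negative for Scarb2 (-0.619), Asah1 (-0.612), Ctsc (-0.417) and Npc1 (-0.336). It was also below 0 for Ctsl (-0.147), Idua (-0.146) and Lamp2 (-0.0088), and positive for the rest.

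Replicates 8, 7 and 5 were the libraries with high lysosomal levels. In replicate 8, 28 of the 32 genes were above their own mean on the log2 scale, in replicate 7 it was 25, and in replicate 5 it was 24. Replicate 5 held the highest value of 13 genes and the lowest of 4, while over all genes tested it held 22.1% of the highest and 24.1% of the lowest values. At the other side, 25 of the 32 genes were below their mean in replicate 3, which held 9 of the lowest values, while replicate 1 held 8 and replicate 9 held 7. Over all genes tested these 3 libraries held 17.2%, 13.1% and 14.0% of the lowest values. The 32 genes took between 1.58% of all gene values in replicate 1 and 2.07% in replicate 8.

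**Figure D2:**
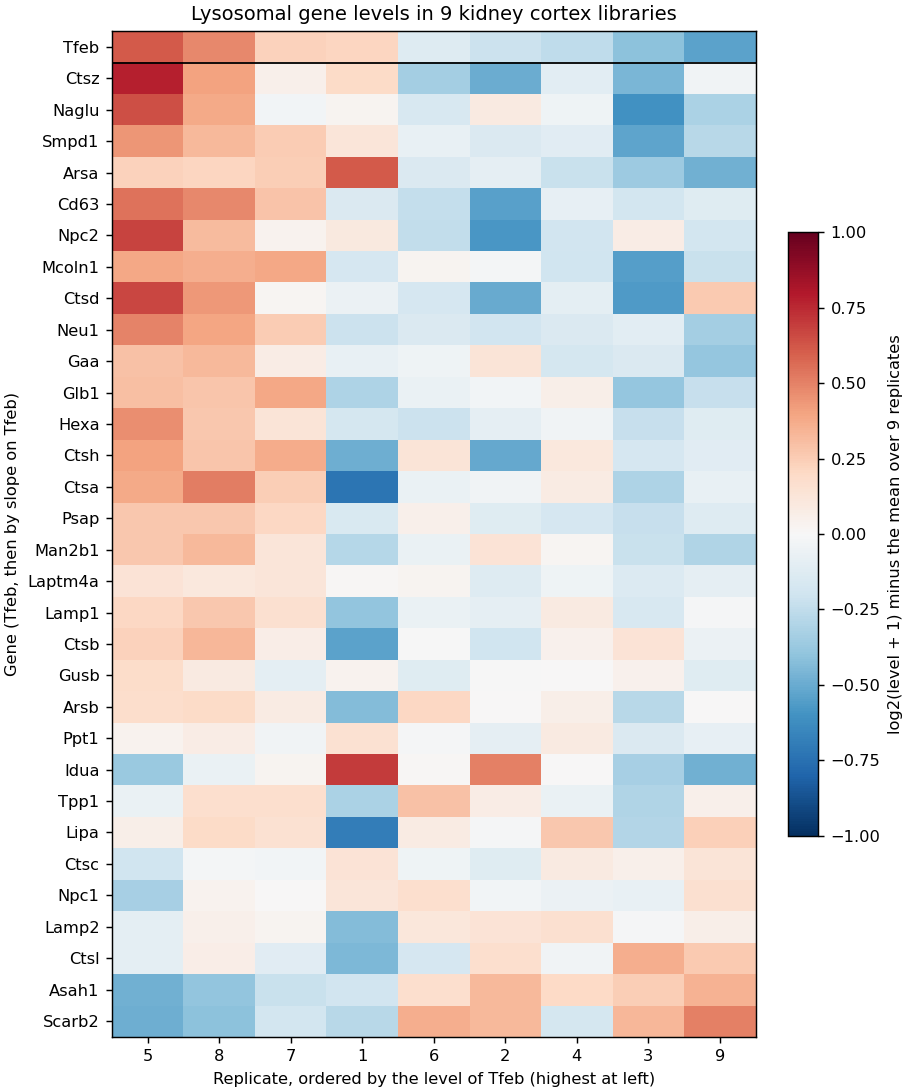
Levels of the 32 lysosomal genes in 9 replicates, as log2(level + 1) minus the gene's mean over the replicates (red higher, blue lower); columns run from the highest Tfeb level at left (replicate 5) to the lowest at right (replicate 9), and rows below Tfeb are ordered by their slope on Tfeb. The top rows are red in replicates 5 and 8, and Asah1 and Scarb2 at the bottom are blue there.

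Spread between replicates was set against that of genes of like level. A limma variance test, which sets the variance of each gene against a trend on mean level, called 0 of the 32 and 0% of all 13647 genes at an adjusted p of 0.05. At an unadjusted p under 0.05 it passed 573 genes (4.20%) and none of the 32, whose lowest adjusted p was 0.957. No gene in the whole test had a lower adjusted p, so the adjusted result says little about the spread of the 32. The median ratio of variance to trend was 1.25 for the 32 genes and 1.11 for all genes tested. Within the 32 the ratio was highest for Tfeb (2.40), Idua (2.26), Scarb2 (2.24), Ctsd (2.09) and Npc2 (2.02). It was lowest for Gusb (0.138), Laptm4a (0.150) and Ppt1 (0.151).

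Which lysosomal genes followed the level of Tfeb was asked with limma slopes on log2 Tfeb, in log2 units per SD of Tfeb, an SD being 0.401 log2 units or 1.32-fold. Of the 31 other genes, 14 passed an adjusted p of 0.05. Among these 12 were higher where Tfeb was higher, or 38.7%, in a fit where 22.2% of all 13646 genes passed with a positive slope. The other 2, Asah1 and Scarb2, were lower, or 6.45%, where 22.2% of all genes passed with a negative slope. Counting slopes of any size, 24 of 31 were positive, beside 51.2% of all genes, with a median of 0.16 against 0.0084 over all genes. The 31 genes are correlated with each other, so their slopes are not 31 separate observations. With 6056 of 13646 genes past the threshold in either direction, passing this test is common in the whole table.

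The Tfeb level moved with other measures of the libraries. Over the 9 replicates it had an r of 0.815 with the multi-aligned read share (exact two-sided permutation p = 0.00561, adjusted 0.0281 over 10 relations between measures). Spearman's rho for this pair was 0.617 (exact p = 0.0857, adjusted 0.143), and r was 0.622 without the 2 replicates farthest from the median of Tfeb. With the macrophage score, the mean standardised log2 level of 12 macrophage markers, r was 0.795 (exact permutation p = 0.0138, adjusted 0.0459), rho was 0.667 (exact p = 0.0589, adjusted 0.143) and r without those 2 replicates was 0.491. With that read share as a covariate in the limma fit, none of the 31 slopes on Tfeb passed, and the lowest adjusted p was 0.0704, for Mcoln1. An unadjusted p under 0.05 was found for 7 positive slopes and 1 negative slope, where 13.1% and 8.48% of all genes had one. The slopes themselves had a median of 0.14, beside 0.16 without the covariate and -0.0083 over all genes with it. With it, 27 of 31 were positive, beside 48.8% of all genes. Those of Mcoln1 (0.40), Arsa (0.31), Smpd1 (0.30), Gaa (0.29), Glb1 (0.29) and Neu1 (0.28) were at least as large as without it. Those of Naglu (0.25), Cd63 (0.19), Hexa (0.14), Ctsz (0.08), Ctsd (0.06) and Npc2 (0.05) were smaller. The SE of each of these slopes was larger with the covariate than without it. Adding it left 1.58% of all genes with a positive and 0.139% with a negative slope past the threshold. Tfeb and the read share cannot be told apart at this number of libraries. Without replicate 5, the highest in both, 5 of 31 passed with a positive and 2 with a negative slope, where 15.1% and 14.1% of all genes did. Without replicate 1 it was 16 and 2, where 23.3% and 23.0% of all genes passed. In replicates 4 to 9 alone, leaving out the 3 libraries with other clock gene levels, it was 15 and 2, where 21.2% and 19.5% did.

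**Figure D3:**
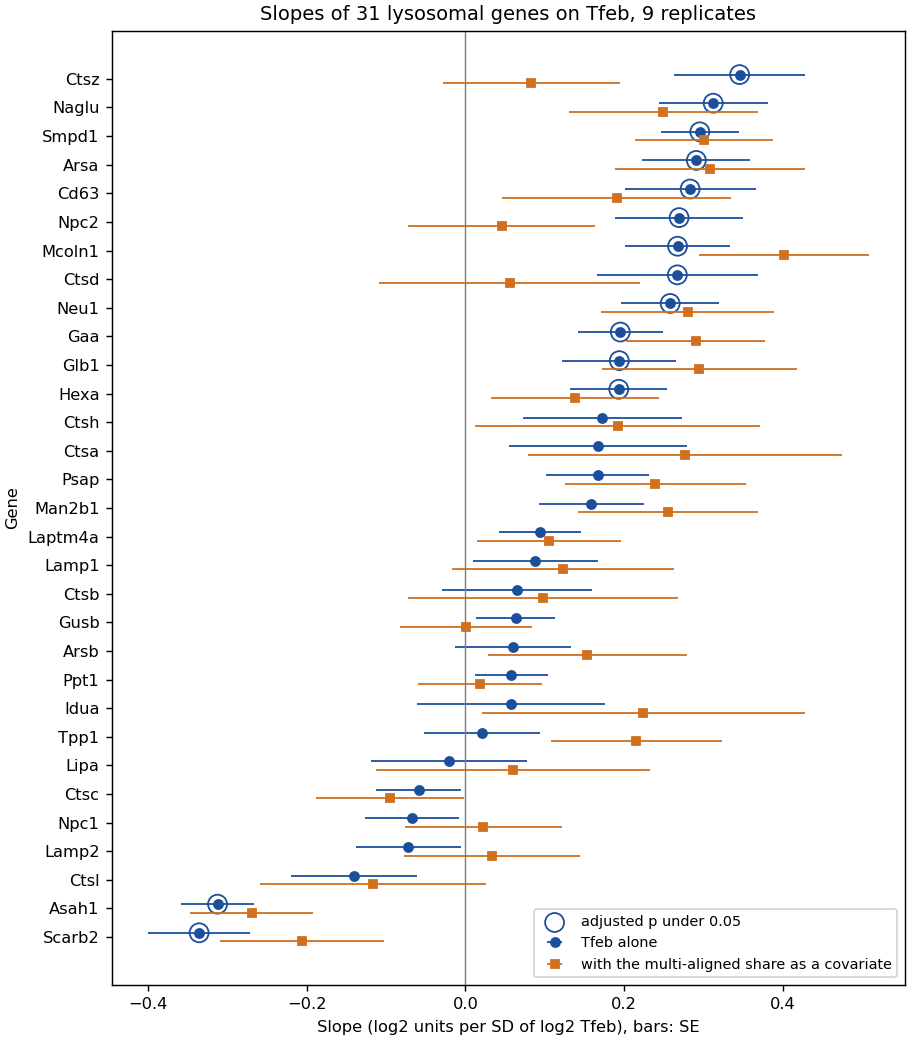
Slopes of 31 lysosomal genes on Tfeb with their SE, in log2 units per SD of log2 Tfeb, from Tfeb alone (blue circles) and with the multi-aligned read share as a covariate (orange squares); large open circles mark an adjusted p under 0.05. Circles surround 14 blue points, 12 at the right of 0 and 2 (Asah1, Scarb2) at the left, and no orange point is circled.

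Among the lipid-handling genes, the acid sphingomyelinase gene Smpd1 had the strongest positive relation to Tfeb and Asah1 a stronger negative one. It ranged from 1714 in replicate 3 through a median of 2349 to 3356 in replicate 5, and its slope was 0.30 ± 0.05 (SE, limma adjusted p = 0.000777). The replicates of Smpd1 fell in nearly the same order as those of Tfeb, with an r of 0.948 and a rho of 0.967, given as a description because the pair was picked from the 31 for its r. Asah1, for acid ceramidase, the enzyme that cleaves the ceramide that sphingomyelinase releases, ran the other way: 1539 in replicate 5, a median of 2408 and 2731 in replicate 9. Its slope was -0.31 ± 0.05 (adjusted p = 0.000401), and its r with Tfeb was -0.973. It lay between 1539 and 1880 in the 4 replicates with the highest Tfeb and between 2408 and 2731 in the other 5. Both passed without any 1 of the 9 replicates, and with the read share as a covariate the slopes were 0.30 ± 0.09 for Smpd1 (adjusted p = 0.0849) and -0.27 ± 0.08 for Asah1 (adjusted p = 0.0844).

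The remaining lipid-handling genes include both cholesterol carriers. Npc2, for the soluble carrier that takes cholesterol out of the lysosome lumen, ranged from 2260 in replicate 2 through 3457 to 5401 in replicate 5 and had a slope of 0.27 ± 0.08 (adjusted p = 0.0168). Its membrane partner Npc1 was lowest in replicate 5, at 418, with a median of 527 and a highest value of 589 in replicate 6 (slope -0.07 ± 0.06, adjusted p = 0.381). Replicate 5 was thus the highest library of Npc2 and the lowest of Npc1. Without replicate 5 Npc2 did not pass, and with the read share as a covariate its slope was 0.05 ± 0.12. Psap, the precursor of the saposin activators, lay between 29200 and 41403 (median 31537), high in replicates 5, 8, 7 and 6. Its slope was 0.17 ± 0.07 (adjusted p = 0.0542, 0.00798 without replicate 1 and 0.169 without replicate 5). Lipa, for the acid lipase that releases cholesterol and fatty acids from lipoproteins, ranged from 3522 in replicate 1 through 6017 to 6860 in replicate 4. Ppt1, a thioesterase that takes palmitate off proteins, stayed between 1581 and 1941 (median 1735).

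Of the 8 glycosidases, 5 passed on Tfeb, all with positive slopes, where 22.2% of all genes passed that way. Naglu, which removes N-acetylglucosamine from heparan sulfate, ranged from 394 in replicate 3 through a median of 586 to 936 in replicate 5 (slope 0.31 ± 0.07, adjusted p = 0.00334). Neu1, the sialidase, ranged from 3938 in replicate 9 through 4512 to 7045 in replicate 5 (slope 0.26 ± 0.06, adjusted p = 0.00535). For both, replicates 5 and 8 were the highest libraries. Hexa, the alpha subunit of beta-hexosaminidase, ranged from 5868 in replicate 3 through 6469 to 9501 in replicate 5, and Glb1 from 3631 in replicate 3 through 4649 to 6214 in replicate 7. Both had a slope of 0.19, with adjusted p-values of 0.0219 and 0.0442. Gaa, which digests lysosomal glycogen and whose site is shown above, ranged from 2100 in replicate 9 through 2671 to 3455 in replicate 8 (slope 0.20 ± 0.05, adjusted p = 0.0113). Glb1 passed in 2 of the 9 fits that leave out 1 replicate, Hexa and Gaa in 7, and Naglu and Neu1 in all 9.

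The other 3 glycosidases did not pass with all replicates. Man2b1, an alpha-mannosidase, ranged from 5075 in replicate 9 through 6333 to 7806 in replicate 8. Its slope was 0.16 ± 0.07 (adjusted p = 0.0702, 0.00982 without replicate 1 and 0.204 without replicate 5). Gusb, beta-glucuronidase, stayed between 522 and 645 with a median of 570. Idua, which takes iduronic acid off dermatan and heparan sulfate, had an order of its own, from 578 in replicate 9 through 809 to 1310 in replicate 1 and 1148 in replicate 2. Its median r with the other lysosomal genes was -0.146, while that of Neu1 was 0.730 and that of Hexa 0.727.

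Of the 2 sulfatases, Arsa passed on Tfeb. Arsa, which desulfates sulfatide, ranged from 1466 in replicate 9 through 1930 to 3130 in replicate 1, with a slope on Tfeb of 0.29 ± 0.07 (adjusted p = 0.00467). It was high in the 4 replicates in which Tfeb was high, although its highest library was not that of Tfeb. Arsb, which desulfates dermatan and chondroitin sulfate, was lowest in replicate 1 at 2309, with a median of 3256 and its highest value, 3615, in replicate 6 (slope 0.06 ± 0.07, adjusted p = 0.535).

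Of the 8 proteases, 2 passed on Tfeb, both upward, a share close to the 22.2% of all genes that passed upward. Ctsz, for the carboxypeptidase cathepsin Z, ranged from 246 in replicate 2 through a median of 338 to 597 in replicate 5, a 2.43-fold range (slope 0.35 ± 0.08, adjusted p = 0.00542). Ctsd, whose promoter stretch is shown above, ranged from 14543 in replicate 3 through 20717 to 34108 in replicate 5 (slope 0.27 ± 0.10, adjusted p = 0.0483). These proteases tracked each other with an r of 0.924, and both were highest in replicates 5 and 8. With the read share as a covariate their slopes were 0.08 ± 0.11 for Ctsz and 0.06 ± 0.16 for Ctsd, and Ctsz did not pass without replicate 5. Ctsd passed in 2 of the 9 fits that leave out 1 replicate.

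Replicate 1 was the lowest library of 4 of the other proteases. Ctsa, for the carboxypeptidase that also protects beta-galactosidase and the sialidase, was 33747 in replicate 1, with a median of 54619 and a highest value of 79956 in replicate 8. With all replicates its slope on Tfeb was 0.17 ± 0.11 (adjusted p = 0.246), and without replicate 1 it was 0.24 ± 0.06 (adjusted p = 0.00535). Without replicate 5, the highest in Tfeb, that slope was 0.11 ± 0.13 (adjusted p = 0.528). Ctsh, a cathepsin with aminopeptidase activity, went from 17266 in replicate 2 and 17598 in replicate 1 through 26474 to 32518 in replicate 5. Its slope was 0.17 ± 0.10 (adjusted p = 0.180, 0.0296 without replicate 1 and 0.469 without replicate 5). Ctsb, a cysteine protease of proximal tubule lysosomes, was 58133 in replicate 1, with a median of 86928 and a highest value of 106097 in replicate 8. Ctsl, another cysteine protease, was 18833 in replicate 1, with a median of 25100 and its highest value, 33209, in replicate 3. Tpp1, tripeptidyl peptidase 1, lay between 2789 in replicate 1 and 4264 in replicate 6. Ctsc, which activates proteases of immune cells, stayed between 6060 in replicate 5 and 7619 in replicate 1.

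Of the 6 membrane proteins, 2 passed on Tfeb upward and 1 downward, where 22.2% of all genes passed each way. Mcoln1, whose 2 matches are shown above, ranged from 1417 in replicate 3 through 2042 to 2708 in replicate 5, and replicates 5, 7 and 8 stood together above the rest (slope 0.27 ± 0.07, adjusted p = 0.00653). Its slope was 0.40 ± 0.11 with the read share as a covariate. Cd63, a tetraspanin of late endosomes and lysosomes, ranged from 15105 in replicate 2 through 20143 to 32064 in replicate 5 (slope 0.28 ± 0.08, adjusted p = 0.0151), and did not pass without replicate 5 or without replicate 8. Scarb2, the receptor that carries glucocerebrosidase to the lysosome, ran against Tfeb, from 788 in replicate 5 through 981 to 1567 in replicate 9 (slope -0.34 ± 0.06, adjusted p = 0.00161). In Scarb2 replicates 2, 3, 6 and 9 lay between 1386 and 1567, and the other 5 between 788 and 981. Scarb2 and Asah1 shared most of their order, with an r of 0.903 and a rho of 0.867.

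**Figure D4:**
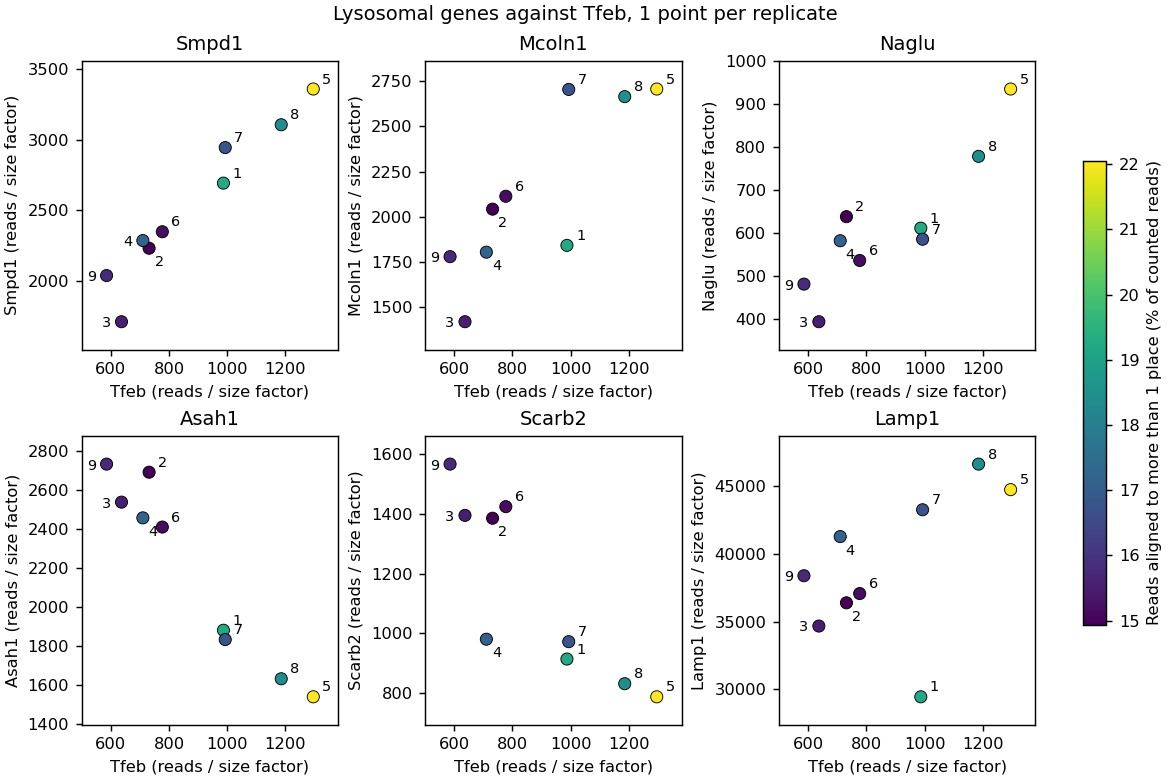
Levels of 6 lysosomal genes against the Tfeb level in 9 numbered replicates, both axes in reads divided by the size factor, with points coloured by the percentage of counted reads aligned to more than 1 place. Smpd1, Mcoln1 and Naglu are higher and Asah1 and Scarb2 lower toward replicate 5, the brightest point, while in Lamp1 replicate 1 lies below all others.

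The remaining membrane proteins did not pass on Tfeb. Lamp1 was 29452 in replicate 1, with a median of 38395 and a highest value of 46643 in replicate 8 (slope 0.09 ± 0.08, adjusted p = 0.382), although its window held the most E-box matches. It shared most of the order of Ctsa, with an r of 0.986 and a rho of 0.933 over all 9 replicates and an r of 0.971 without replicate 1. This pair had the highest r among all pairs of these genes and is given as a description. Lamp2, which works with Lamp1 and in chaperone-mediated autophagy, was 5311 in replicate 1 and between 6725 and 8031 in the other 8 (slope -0.07 ± 0.07, adjusted p = 0.398). Laptm4a, a small transmembrane protein, had the narrowest range of the 32, from 10928 to 13217 (1.21-fold). Of the 14 genes that passed on Tfeb, 11 had a promoter window and 5 of these held CACGTG. Of the 17 tested that did not pass, 13 had one and 2 of these held it. The share with CACGTG among all genes that passed or did not pass is not given here. Of the 5 with the core, Mcoln1 passed in all 9 fits that leave out 1 replicate. Gaa and Cd63 passed in 7, and Ctsd and Glb1 in 2. Of the genes that passed with a window but no core, Smpd1, Naglu, Neu1 and Scarb2 (a negative slope) passed in all 9. Ctsz and Npc2 passed in 8. The difference between the counts of 5 and 2 was not tested.

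The genes with their lowest value in replicate 1 were 8: Ctsa, Ctsb, Ctsl, Tpp1, Arsb, Lipa, Lamp1 and Lamp2. That library also had the lowest proximal tubule score, the mean standardised log2 level of the 13 markers, at -2.31 where the next was -0.394. Slopes on this score passed in limma for 0 of 32 genes, in a fit where 0% of all 13634 genes passed with a positive and 0% with a negative slope. At an unadjusted p under 0.05, 9 of the 32 passed, all with positive slopes, where 3.62% of all genes did so with a positive and 2.17% with a negative slope. The edgeR fit on recovered reads passed 0 of the 32 after adjustment and DESeq2 passed 2. The share of all genes that DESeq2 passed is not given here, so those 2 have no background. The slopes with the largest t were 0.34 ± 0.07 for Ctsa (adjusted p = 0.301), 0.26 ± 0.07 for Lipa (0.505) and 0.20 ± 0.06 for Arsb (0.531). Without replicate 1, 0 of 32 passed in limma and 8 had an unadjusted p under 0.05, where 10.2% of all genes had one with a positive and 4.88% with a negative slope. Whether the low tubule markers had a part in the low values of these 8 genes was not tested.

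**Figure D5:**
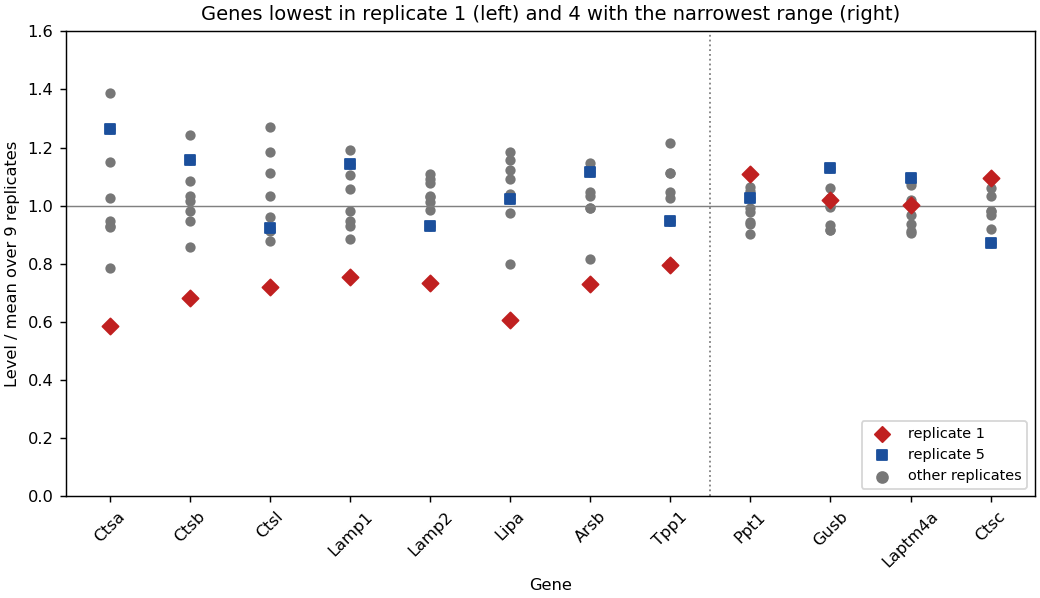
Level in each replicate divided by the gene's mean over 9 replicates, for the 8 genes lowest in replicate 1 (left of the dotted line) and the 4 genes with the narrowest range (right); red diamonds are replicate 1, blue squares replicate 5 and grey circles the others. Replicate 1 lies lowest in each of the 8 genes and not lowest in the 4 narrow ones.

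Macrophages are rich in lysosomes, so slopes on the macrophage score were taken as well. In limma 7 of 32 passed: Naglu (0.32 ± 0.07), Ctsz (0.35 ± 0.09), Tfeb (0.32 ± 0.09), Smpd1 (0.25 ± 0.07) and Ctsd (0.31 ± 0.10) with positive slopes, and Scarb2 (-0.30 ± 0.08) and Asah1 (-0.24 ± 0.08) with negative ones. Their adjusted p-values lay between 0.0311 and 0.0466. In this fit 8.66% of all 13635 genes passed with a positive and 10.1% with a negative slope, the background for these counts of 5 and 2. With the read share or library size as a covariate 0 passed, and the same held without replicate 2, 3, 5, 8 or 9 and in replicates 4 to 9 alone. Without replicate 4 or without replicate 6, 4 passed (3 upward, 1 downward), where 5.40% and 5.64% of all genes passed upward and 6.20% and 7.73% downward.

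Slopes on the multi-aligned read share passed for 9 of 32 genes. The 7 positive ones were Ctsz (0.39 ± 0.07, adjusted p = 0.00248), Npc2, Tfeb, Naglu, Smpd1, Ctsd and Cd63, in a fit where 16.3% of all genes passed that way. Scarb2 (-0.33 ± 0.07, adjusted p = 0.00522) and Asah1 were negative, where 18.7% of all genes passed. Without replicate 5, 2 passed, Ctsz upward and Scarb2 downward, where 3.90% and 8.89% of all genes did. Slopes on library size passed for 0 of 32 genes, and for 0% of all genes in the positive and 0% in the negative direction, in limma and with edgeR and DESeq2 on recovered reads. An unadjusted p under 0.05 with a positive slope was found for 7 of the 32, where 8.12% of all genes had one (and 5.25% with a negative slope), led by Naglu (0.28 ± 0.09), Mcoln1 (0.24 ± 0.08) and Man2b1 (0.19 ± 0.07), each with an adjusted p of 0.371.

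Genes that acidify, supply and regulate the lysosome were taken from 6 other lists, in which 89 genes were tested on Tfeb. Of these, 31 (34.8%) passed with a positive and 11 (12.4%) with a negative slope, where 22.2% of all genes passed each way, and their median slope was 0.07 against 0.0084 over all genes. Among other soluble lysosomal proteins 8 of 19 passed upward and 1 downward, led by Hyal2, for a hyaluronidase (875 in replicate 9, median 1065, 1932 in replicate 5, slope 0.39 ± 0.04), and Plbd2 (slope 0.34 ± 0.05). Among other lysosomal membrane proteins 5 of 11 passed, all upward, led by Atp13a2, for a polyamine-exporting ATPase (slope 0.36 ± 0.05), and Cln3 (slope 0.46 ± 0.08). Of the subunits of the V-ATPase, the pump that acidifies the lysosome, 5 of 16 passed upward and 2 downward. Its membrane subunit gene Atp6v0b ranged from 902 in replicate 3 through 1361 to 2728 in replicate 5 (slope 0.51 ± 0.06, adjusted p = 0.000171), and Atp6v0e1 had a slope of 0.42 ± 0.06.

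Of 8 genes that tag and sort new hydrolases with mannose 6-phosphate, 4 passed upward and 2 downward, where 22.2% of all genes passed each way, so the downward share was near the background. Nagpa, which uncovers the tag, had a slope of 0.41 ± 0.07 (183 in replicate 3, median 276, 475 in replicate 5). Gnptab, for a part of the enzyme that adds it, had a slope of -0.47 ± 0.08 and ran from 332 in replicate 5 through 550 to 944 in replicate 9. Gnptg, for another part of that enzyme, went the other way, with a slope of 0.27 ± 0.07 (limma adjusted p = 0.00694). It ran from 1239 in replicate 2 through 1521 to 2465 in replicate 5. In the list of Tfeb's relatives and lysosomal nutrient sensing, 2 of 17 passed upward and 3 downward, both shares below those 22.2%. Fnip2, a partner of folliculin, had a slope of -0.96 ± 0.17 and ran from 314 in replicate 5 through 830 to 2498 in replicate 3, and Tsc1, for a brake on mTORC1, had a slope of -0.43 ± 0.08. In the autophagy list 7 of 18 passed upward and 3 downward. Map1lc3a, for a protein of the autophagosome membrane, had a slope of 0.53 ± 0.07 (910 in replicate 3, median 1385, 3269 in replicate 5), and Vps18, for a subunit that tethers membranes before fusion, had a slope of 0.23 ± 0.05. Limma adjusted p-values of the 12 leading genes, picked as the 2 with the largest t in each list, lay between 0.000143 and 0.00323. Each of the 12 had its highest or lowest value in replicate 5, the highest library in Tfeb and in the multi-aligned read share. Fits of these lists without replicate 5 or with that share as a covariate are not given here. Of the 12 macrophage markers, 6 passed upward and 1 downward on Tfeb, beside the same 22.2% of all genes each way.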

How the data were processed

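Stranded mRNA sequencing libraries of kidney cortex were made, per the labels' protocols. The deposited values are a signal that the authors obtained by dividing read counts by size factors, per the labels. FastQC 0.11.2, MultiQC 0.9, HTSeq 0.6.1p1, DESeq2 and the build Rnor_5.0 are listed, without their roles, in the submitters' processing notes. The aligner is not given in the sources used here. In the table, 3 rows name no gene and stayed out of all tests: unassigned reads (22.0% to 31.3% of counted reads per library), reads aligned to more than 1 place (14.9% to 22.1%) and ambiguous reads (0.0910% to 0.129%). Values were whole multiples of 1 read, within 0.1 read, for 99.988% to 99.994% of the values above 0 in each library, which gave the read numbers.

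Slopes were fitted with limma 3.58.1 (R 4.3.3, trend, robust) on log2(level + 1) for genes with a mean of at least 10, with Benjamini-Hochberg adjustment over all genes tested; fold changes of low genes are understated on that scale. The variance test used 1 prior number of degrees of freedom for all genes. Scripts were tested on simulated data. Alternatives were pseudocounts of 0.5 and 5, no filter or a mean of at least 100, TMM scaling, equal totals, a covariate, edgeR 4.0.16 and DESeq2 1.42.0 on recovered reads, each replicate left out, and replicates 4 to 9 alone. Promoter windows came from RefSeq (GRCr8), matched by symbol. The genes and lists were chosen with earlier results of these data known. Named were Tfeb, the genes past a threshold or with the largest t, the 5 with the highest and 3 with the lowest variance ratio, and the 2 leading genes of each further list; other lysosomal genes were singled out after their values were seen.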

Additional observations from a re-analysis of the deposited data

Results flagged for a closer look

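In Lamp2, replicate 1 lay at 5311 and the nearest other replicate at 6725, a gap of 0.520 of the whole range, which exceeds Dixon's 95% critical value for 9 samples. In the proximal tubule score, replicate 1 lay at -2.31 and the nearest other replicate at -0.394, a gap of 0.569 of the range. The same library was the low one both times. Chance passes this rule in about 1 in 20 groups, and 32 lysosomal genes were examined.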

How the results depend on the processing

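No paired analysis was possible because all 9 libraries belong to 1 group. Leaving out 1 replicate at a time, the number of genes past the threshold ranged from 7 to 18 for Tfeb (14 with all), from 0 to 9 for the macrophage score (7 with all), from 2 to 12 for the read share (9 with all), and was 0 throughout for the proximal tubule score, library size and the variance test; the median pairwise r ranged from 0.286 to 0.466. With the multi-aligned read share as a covariate the count was 0 for Tfeb, 1 for the proximal tubule score and 0 for the macrophage score. With library size as a covariate it was 8 for Tfeb and 0 for the macrophage score. DESeq2 on recovered reads gave 2 for the proximal tubule score. For most of these settings the share of all genes past the threshold is not given here. That share changed between settings, so the counts alone do not set the lysosomal genes apart from the whole table. The macrophage count was 0 without a filter, with equal library totals and in replicates 4 to 9 alone. The median pairwise r was 0.161 with equal totals and 0.439 in replicates 4 to 9 alone, where the slope of Lipa on the proximal tubule score was -0.035. The causes were not tested. Equal totals moved the median of all genes by up to 0.167 log2 units in a library, and 12 genes then passed on Tfeb (9 upward and 3 downward, where 17.5% and 20.5% of all genes did). For the named genes, 231 of 280 refits on Tfeb kept direction and side of the threshold, 63 of 140 on the macrophage score and 153 of 171 on the read share. With 9 libraries of 1 group, no control and correlated measures, the slopes are descriptions of shared variation.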
